A study of Homo sapiens with 14 samples.

Results

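The genes described here encode 9 RNA-binding proteins with RGG motifs, stretches in which arginine is followed by glycines and which protein arginine methyltransferases modify. EWSR1 and TAF15 belong to the FET family, HNRNPA1, HNRNPA2B1, HNRNPK, HNRNPU and HNRNPR are heterogeneous nuclear ribonucleoproteins (hnRNPs), and SERBP1 and G3BP1 belong to neither family. They were chosen by gene name from the 58780 genes of the deposited count table, and all 9 passed the filter on low counts, as did 21910 genes in all. The rule names genes and uses no measured value, but earlier results of these data were known when the genes were chosen.

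RGG motifs bind RNA and help such proteins gather into condensates, and methylation of their arginines changes both. Type I methyltransferases, of which PRMT1 is the main one, place both methyl groups on the same nitrogen of the side chain, while PRMT5 places them on different nitrogens. The drugs of the experiment act on these enzymes and not on the genes, so the measurements below say how the substrate genes were transcribed, and say nothing of protein or methylation.

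Precision run-on sequencing (PRO-seq), which reads RNA being made by engaged polymerases in permeabilized cells, was done on A549, a human lung adenocarcinoma line. The 7 groups had 2 libraries each, all in 0.01% DMSO: cells labelled untreated at 15 min, 1 µM GSK591 (a PRMT5 inhibitor) for 15 min or 3 h, 1 µM MS023 (a type I inhibitor) for 15 min or 3 h, and either inhibitor at 1 µM together with 100 nM dexamethasone (Dex, a synthetic glucocorticoid) for 15 min. Dex without inhibitor and an untreated 3 h group were not analysed here, so time in culture and 3 h of drug cannot be told apart, and a Dex value is always one beside an inhibitor. Nothing in the labels says that the libraries of a group came from separate cultures. The p-values therefore measure the spread between these libraries, moderated by that of all genes tested, and this spread may be technical.

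Library totals ran from 5768312 to 9606938 counts, and mitochondrial genes took 39.8% to 58.0% of them. The second library with GSK591 and Dex stood apart: it had the highest mitochondrial share and its pair differed by a chi-square per degree of freedom of 13.4, against 2.00 to 5.38 in the other pairs. The A549 markers KRT8 (median 302 CPM, reads scaled to a fixed library size) and AKR1C1 (257 CPM) were high. The other A549 markers had medians from 18.8 CPM (KRT19) to 222 CPM (AKR1B10). The immune markers PTPRC and CD3E had medians of 0, and CD14 had 3.24 CPM. Medians were 6.94 CPM for the fibroblast marker COL1A1 and 5.35 CPM for the erythroid marker HBA1. Other fibroblast, endothelial and erythroid markers had medians of at most 0.481 CPM. The 9 genes held 6093 to 9409 reads per library, 0.0844% to 0.113% of the total.

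How the genes earn their name can be read from their coding sequences. In the GRCh38 reference coding sequences of GENCODE 29, an arginine codon followed by 2 glycine codons (an RGG triplet) occurred 22 times each in EWSR1 and TAF15, 8 times in HNRNPR, 7 times each in HNRNPU and SERBP1, 5 times in HNRNPK, 4 times each in HNRNPA1 and HNRNPA2B1, and 2 times in G3BP1. Of 19517 coding genes searched, 12.7% held any such triplet and 0.738% held 3 or more, a count that 8 of the 9 genes reached. The first triplet lay at 31.5%, 42.5% and 46.8% of the coding sequence in TAF15, SERBP1 and EWSR1 and at 55.5% or later in the other 6 genes. In G3BP1 the first lay at 93.3% of the coding sequence. The stretches of 30 codons that hold the most triplets are shown for TAF15, HNRNPA1 and G3BP1, the genes called in a comparison below, and for EWSR1 as the other FET gene, with each RGG triplet in capitals.
EWSR1: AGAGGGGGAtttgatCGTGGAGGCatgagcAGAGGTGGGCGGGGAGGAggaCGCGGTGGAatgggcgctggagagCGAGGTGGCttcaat
TAF15: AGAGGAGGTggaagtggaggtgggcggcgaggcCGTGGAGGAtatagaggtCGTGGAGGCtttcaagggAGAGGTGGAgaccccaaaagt
HNRNPA1: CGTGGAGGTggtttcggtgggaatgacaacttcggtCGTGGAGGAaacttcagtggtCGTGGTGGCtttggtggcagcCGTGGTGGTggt
G3BP1: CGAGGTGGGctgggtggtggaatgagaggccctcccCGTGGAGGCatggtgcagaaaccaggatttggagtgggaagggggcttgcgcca
These are spliced coding sequences in the sense direction, and each has 90 bases. On GRCh38 the first and last bases lie at chromosome 22, 29288722 to 29291589, for EWSR1, chromosome 17, 35842429 to 35844135, for TAF15, chromosome 12, 54282605 to 54282828, for HNRNPA1 and chromosome 5, 151803993 to 151804082, for G3BP1, all on the plus strand. Only the G3BP1 stretch lies in 1 exon. The EWSR1 stretch held 6 triplets, those of TAF15 and HNRNPA1 held 4 each, and that of G3BP1 held 2. All 4 arginine codons of the HNRNPA1 triplets were CGT, whereas 8 of the 22 in EWSR1 were AGA or AGG.

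Levels between genes were compared per kilobase of merged exons. Whether reads were counted over exons or over whole genes is not given in the sources used here, and the order depends on it. In untreated cells HNRNPA2B1 stood highest at 34.2 ± 0.225 CPM per kb, followed by TAF15 (28.8 ± 1.19) and HNRNPA1 (26.6 ± 2.29; SD, n = 2 each). TAF15 and HNRNPA1 did not differ beyond their spread. HNRNPU (9.08 ± 0.196) and HNRNPK (6.87 ± 1.03) came next, then EWSR1 (4.44 ± 0.205), SERBP1 (4.08) and G3BP1 (3.74), and HNRNPR was lowest at 2.26 ± 0.188 CPM per kb. Per kilobase of the whole gene span, a measure added after the data were seen, HNRNPA1 stood highest at 19.6 ± 1.69 CPM per kb, followed by HNRNPA2B1 (11.1 ± 0.0731). TAF15, which spans 150825 bases, went from the second place to the seventh by that measure, at 1.13 ± 0.0468 CPM per kb, below EWSR1 (1.41 ± 0.0650). HNRNPR was lowest by both measures. Reads of a gene that overlaps exons of another cannot be assigned with certainty, because no source used here gives the strand setting: COX20 covers 15.6% of the HNRNPU exon length and HEATR9 covers 7.18% of that of TAF15, each on the opposite strand. HNRNPA1, HNRNPR and SERBP1 overlap no other exon.

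Across all 14 libraries each gene moved little. The highest library stood 1.26 times above the lowest for HNRNPU and 1.73 times for HNRNPR, the extremes of the 9. The second library with GSK591 and Dex was the highest for EWSR1, TAF15, HNRNPA2B1 and HNRNPK, which is the library that stood apart. Within groups HNRNPA2B1 varied with an SD of 0.20 on the log2 scale, where genes of like level had a median of 0.086. TAF15 varied with 0.15 against 0.085 and HNRNPR with 0.23 against 0.14. EWSR1 (0.094 against 0.10) and SERBP1 (0.090 against 0.12) varied less than genes of like level.

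**Figure D1:**
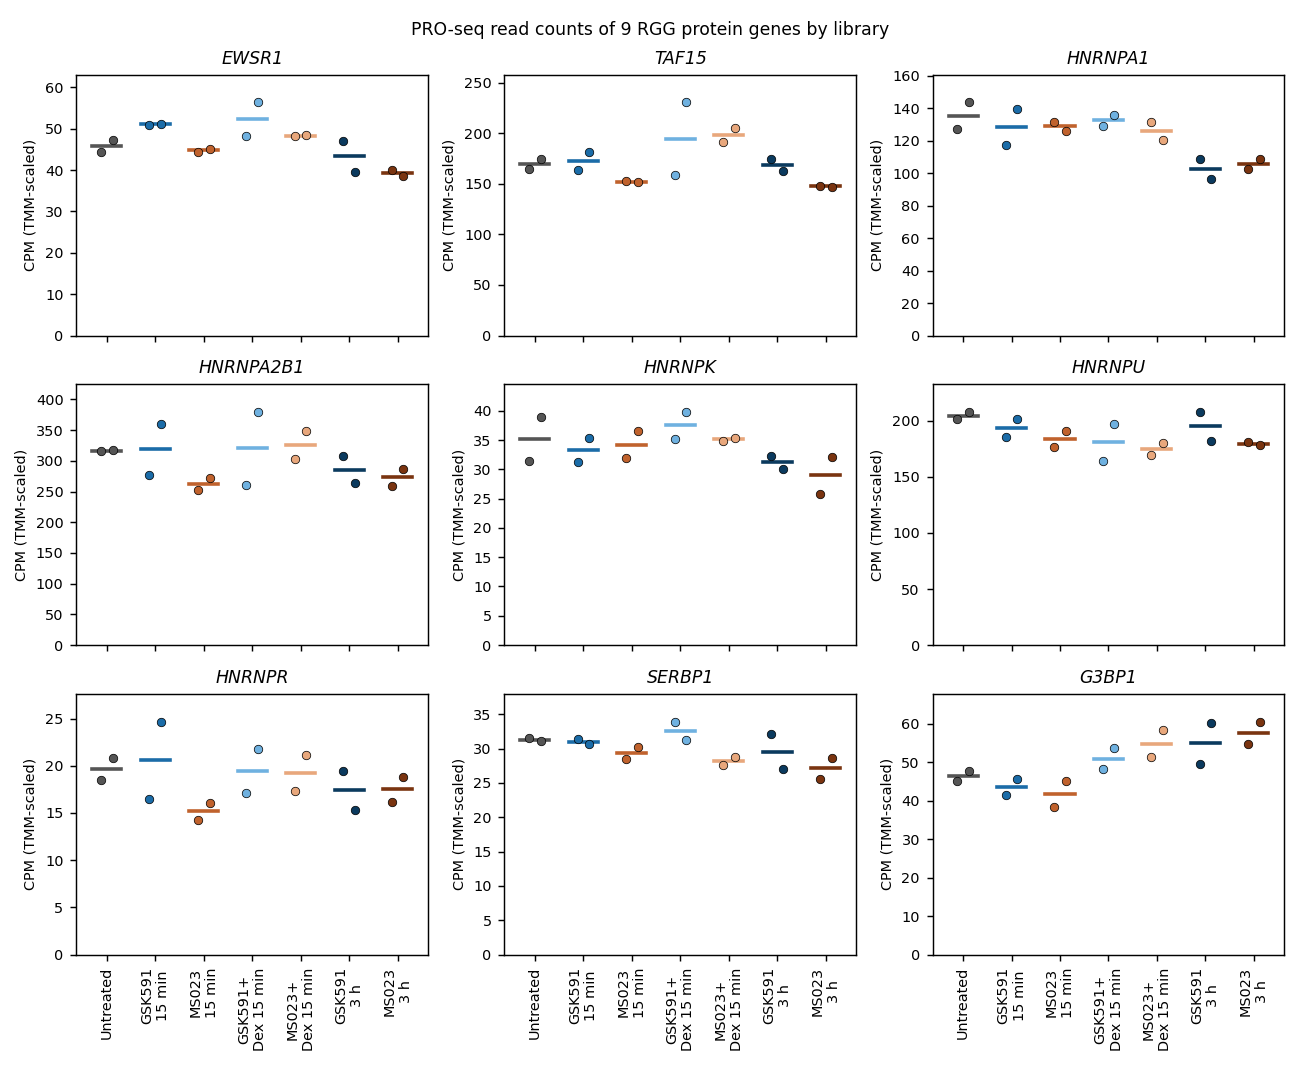
Each panel plots 1 gene, with CPM on TMM-scaled library sizes on the y axis from 0 and the 7 groups on the x axis; points are libraries and lines are group means. HNRNPA1 sits between 96.7 and 109 CPM in the 4 libraries of 3 h and between 117 and 144 CPM in the other 10, and G3BP1 reaches 60.5 CPM at 3 h of MS023.

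After 15 min of either inhibitor, none of the 9 genes was called. With GSK591, edgeR's quasi-likelihood test called 0 of 9 at an adjusted p under 0.05, 0 had an unadjusted p under 0.05 and DESeq2 called 0, while 0.306% of all genes tested were called. Log2 fold changes ran from -0.09 for G3BP1 to 0.16 for EWSR1, with a median of -0.01 against 0.02 for all genes. EWSR1 read 44.3 and 47.3 CPM in untreated cells and 50.9 and 51.1 CPM with GSK591, the only gene of the 9 whose libraries did not overlap, where 38% of all genes did not.

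With MS023 for 15 min the 9 genes all had log2 fold changes below 0, with a median of -0.16 against -0.00 for all genes. EdgeR and DESeq2 called 0 of 9, against 0.183% of all genes in edgeR, and 2 had an unadjusted p under 0.05. Those were HNRNPR, at 18.5 and 20.8 CPM untreated and 14.3 and 16.1 CPM with MS023 (log2 fold change -0.38 ± 0.17 SE, edgeR adjusted p 0.55), and HNRNPA2B1, at 315 and 318 CPM against 252 and 272 CPM (-0.27 ± 0.13, edgeR adjusted p 0.60). The shared direction depended on the scaling: with library totals alone 7 of the 9 lay above 0, and the median of all genes moved by 0.17. The groups did not overlap for 5 of the 9 genes, against 39.6% of all genes. Of 20 other hnRNP genes, described below, 17 also lay below 0 (median -0.10). Of 20 other genes of RGG proteins, 12 did (median -0.01). The groups did not overlap for 60% and 55% of these lists.

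At 3 h, HNRNPA1 fell with each inhibitor. HNRNPA1 (ENSG00000135486.17, chromosome 12, 54280193 to 54287088, plus strand, GRCh38) encodes a protein that packages nascent transcripts and represses splice sites. It read 127 and 144 CPM in untreated cells, 109 and 96.7 CPM after 3 h of GSK591 and 103 and 109 CPM after 3 h of MS023. All 4 of the 3 h libraries lay below both untreated libraries. The log2 fold change was -0.40 ± 0.10 (SE) with GSK591 (edgeR adjusted p 0.0057) and -0.36 ± 0.10 with MS023 (edgeR adjusted p 0.018). These comparisons share the untreated libraries. In the authors' deposited table the values were -0.48 ± 0.14 (SE, adjusted p 0.020) with GSK591 and -0.44 ± 0.14 (adjusted p 0.064) with MS023. HNRNPA1 was the single gene of the 9 called in either comparison, against 11% of all genes for GSK591 and 7.63% for MS023. An unadjusted edgeR p under 0.05 was found for 2 of the 9 with GSK591 and 4 with MS023. Of the 21910 genes tested, 5208 and 4368 had one. The groups did not overlap for 3 and 7 of the 9, against 54.4% and 50.5% of all genes.

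At 15 min no such difference was called, and HNRNPA1 read 117 and 139.6 CPM with GSK591 and 132 and 126 CPM with MS023. Between 15 min and 3 h of GSK591 it fell by 0.32 ± 0.10 on the log2 scale (edgeR adjusted p 0.046), again the 1 gene called of the 9, against 6.41% of all genes. That call held under 2 of 12 alternatives, and its adjusted p ran from 0.033 to 0.53 over them. Between 15 min and 3 h of MS023 the value was -0.29 ± 0.10 (edgeR adjusted p 0.056), and with library totals alone it was -0.43 and was called (edgeR adjusted p 0.031). The inhibitors could not be told apart at 3 h: GSK591 against MS023 gave -0.04 for HNRNPA1, with a 95% interval from -0.24 to 0.16.

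HNRNPA1 has many processed copies in the genome. The table holds 75 rows named as its pseudogenes, which took 25.2% to 34.8% of the reads of gene and copies together. The copies read 49.6 and 51.3 CPM in untreated cells, 58.1 and 40.8 CPM after 3 h of GSK591 and 43.5 and 48.5 CPM after 3 h of MS023, so these groups overlapped for GSK591 and not for MS023. With the copies added to the gene, the log2 fold change was -0.29 for both inhibitors and was no longer called (edgeR adjusted p 0.079 for GSK591 and 0.092 for MS023). How the authors' counting split reads between gene and copies is not given in the sources used here, so HNRNPA1 is uncertain in that respect. EWSR1, TAF15 and HNRNPA2B1 have no row of this kind, and in HNRNPR, SERBP1, HNRNPK, G3BP1 and HNRNPU the copies took a median of 20.6%, 14.9%, 5.54%, 4.48% and 1.52% of the reads.

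**Figure D2:**
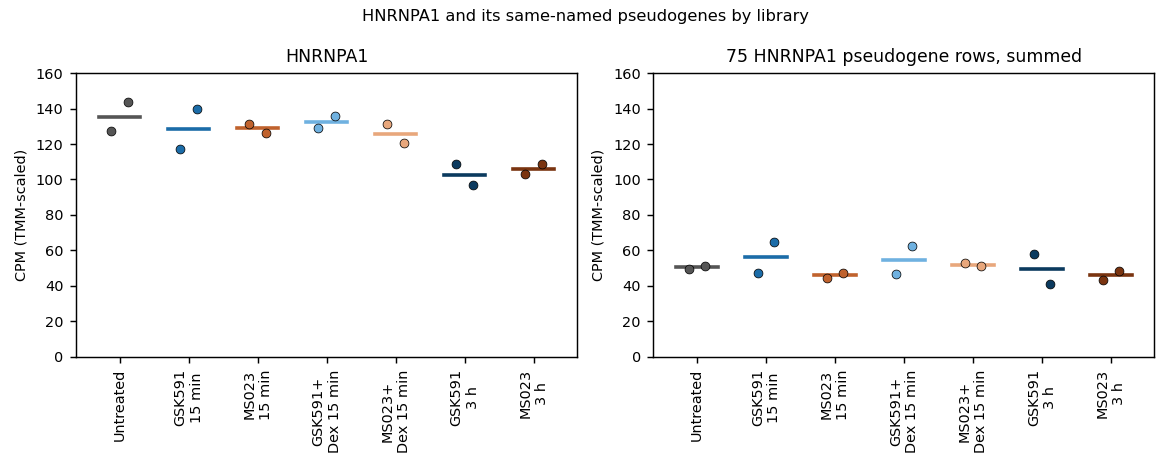
The left panel plots HNRNPA1 and the right panel the sum of its 75 pseudogene rows, both in CPM on TMM-scaled library sizes from 0 to the same maximum, with points for libraries and lines for group means. HNRNPA1 is lowest in the 4 libraries of 3 h (96.7 to 109 CPM), while the copies range from 40.8 to 58.1 CPM there and read 49.6 and 51.3 CPM in untreated cells.

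The call of HNRNPA1 at 3 h also rested on single libraries. Leaving out the second untreated library gave -0.30 for GSK591 (edgeR adjusted p 0.20) and -0.25 for MS023 (0.37), and leaving out the second GSK591 library gave -0.33 (0.13). For MS023, leaving out its first or second library gave -0.31 (0.19) and -0.38 (0.061). Scaling by library totals alone gave -0.27 (0.23) for GSK591 and -0.33 (0.17) for MS023. HNRNPA1 lay below 0 under all 12 alternatives for each inhibitor.

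G3BP1 moved the other way. G3BP1 (ENSG00000145907.14, chromosome 5, 151771045 to 151812785, plus strand) encodes the protein that nucleates stress granules when translation stalls. It read 38.4 and 45.2 CPM after 15 min of MS023 and 54.6 and 60.5 CPM after 3 h, with no overlap. The rise was 0.47 ± 0.11 on the log2 scale (edgeR adjusted p 0.0040), the only call among the 9 in that comparison, where 12% of all genes were called. With GSK591 it read 41.6 and 45.5 CPM at 15 min and 49.6 and 60.2 CPM at 3 h (0.33 ± 0.11, edgeR adjusted p 0.067). Against untreated cells, at 45.2 and 47.7 CPM, the values were 0.31 ± 0.11 with MS023 for 3 h (edgeR adjusted p 0.085) and 0.24 ± 0.11 with GSK591 for 3 h (0.17), so neither passed the threshold. G3BP1 was the only gene of the 9 with a value above 0 in both of these.

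G3BP1 was called again when Dex was added to MS023. It went from 38.4 and 45.2 CPM to 51.3 and 58.4 CPM, a rise of 0.40 ± 0.11 (edgeR adjusted p 0.019). Against untreated cells MS023 with Dex gave 0.24 ± 0.11 (edgeR adjusted p 0.21), which did not pass. Both calls use the 2 libraries of MS023 for 15 min, the first of which held the lowest G3BP1 value of all 14 libraries (38.4 CPM). Without the first of these libraries the values were 0.35 for 3 h (edgeR adjusted p 0.17) and 0.28 for Dex (0.39), without the second library of MS023 for 3 h 0.41 (0.055), and without the second library of MS023 with Dex 0.31 (0.26). Scaling by library totals alone gave 0.31 (0.18) for 3 h and 0.21 (0.40) for Dex, and DESeq2 gave 0.40 (0.067) for Dex.

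TAF15 also rose when Dex was added to MS023. TAF15 (ENSG00000270647.5, chromosome 17, 35713791 to 35864615, plus strand) encodes a FET protein that associates with the TFIID complex. It read 152 CPM in both MS023 libraries of 15 min and 192 and 205 CPM with Dex, a rise of 0.38 ± 0.11 (edgeR adjusted p 0.024). Untreated cells lay between, at 165 and 175 CPM, and neither MS023 alone (-0.16, edgeR adjusted p 0.78) nor MS023 with Dex (0.22, edgeR adjusted p 0.26) passed against them. TAF15 lost the call in each of 4 fits that left out 1 of these libraries, with values from 0.34 to 0.43. Such a fit leaves 1 library in a group, which weakens the test for every gene. The call was also lost with library totals alone (0.20, edgeR adjusted p 0.37). G3BP1 and TAF15, 2 of the 9 genes, compare with 8.97% of all genes called where Dex was added to MS023. HNRNPA2B1, at 252 and 272 CPM without and 303 and 348 CPM with Dex, had 0.31 ± 0.13 (edgeR adjusted p 0.14), and was called when only these groups were fitted (0.33, edgeR adjusted p 0.037).

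When Dex was added to GSK591, edgeR and DESeq2 called 0 of the 9 genes, 0 had an unadjusted p under 0.05, and 3.7% of all genes were called. G3BP1 had 0.22 ± 0.12 (edgeR adjusted p 0.34) and TAF15 0.17 ± 0.11 (0.48), with TAF15 at 159 and 231 CPM. The second of these libraries is the one that stood apart: without the first library TAF15 was called (0.41, edgeR adjusted p 0.020), and without the second it had -0.11 (0.78). The difference between the Dex effects was tested directly. It was called for 0 of the 9 genes (0 at an unadjusted p under 0.05, 0 in DESeq2), against 1.15% of all genes, and for G3BP1 and TAF15 it was -0.18 and -0.21, with 95% intervals from -0.51 to 0.15 and from -0.53 to 0.11. The inhibitors with Dex against untreated cells gave 0 of 9 calls each in edgeR and DESeq2 (0 at an unadjusted p under 0.05 for GSK591, 2 for MS023), against 5.85% and 7.66% of all genes.

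**Figure D3:**
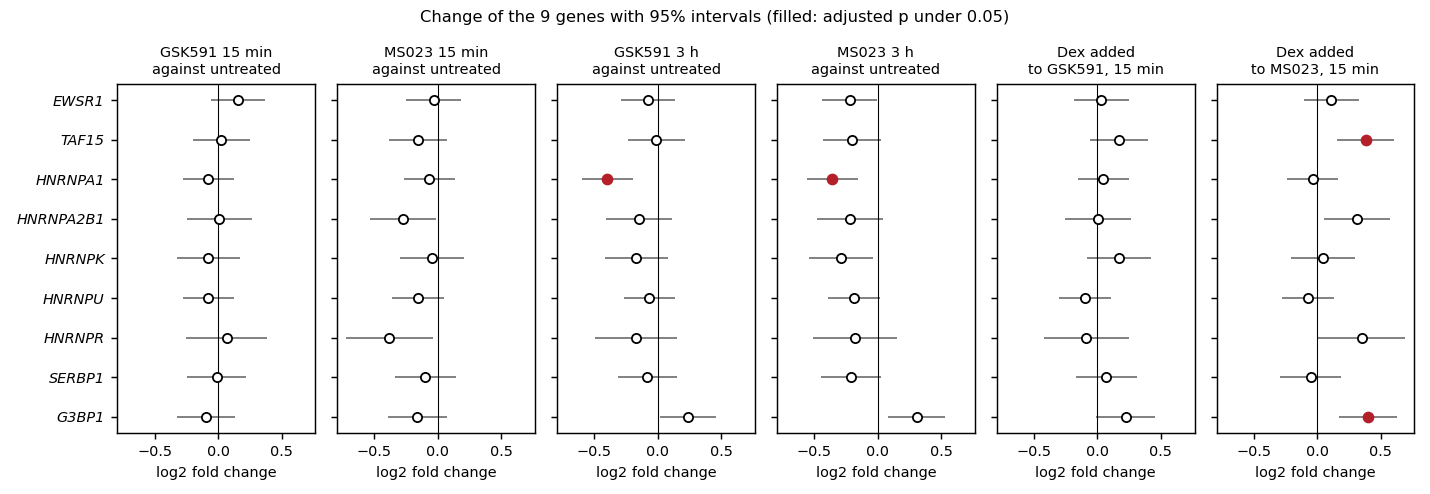
The x axes give log2 fold changes and the bars 95% intervals for the 9 genes in 6 comparisons, with filled points for an edgeR adjusted p under 0.05. HNRNPA1 is filled at 3 h of each inhibitor (-0.40 and -0.36), and TAF15 and G3BP1 are filled where Dex was added to MS023 (0.38 and 0.40).

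The other 6 genes were called in 0 of 13 comparisons when all libraries were fitted together. EWSR1, the fusion partner in Ewing sarcoma, had 40.0 and 38.5 CPM after 3 h of MS023 against 44.3 and 47.3 CPM untreated (-0.22 ± 0.11, edgeR adjusted p 0.25). HNRNPK, which binds C-rich RNA and DNA, had 25.8 and 32.1 CPM there against 31.4 and 38.9 CPM (-0.29 ± 0.13, edgeR adjusted p 0.18). These HNRNPK libraries overlapped. HNRNPU, a chromatin-associated scaffold protein, ran from 165 to 208 CPM over all libraries, and SERBP1, an mRNA-binding protein found on ribosomes, from 25.6 to 34.0 CPM. For these 6 the smallest adjusted p in that edgeR fit was 0.14, for HNRNPA2B1 with Dex added to MS023. With only the groups compared, HNRNPU was called for MS023 with Dex against untreated cells (-0.23, edgeR adjusted p 0.048). Their 95% intervals reached at most 0.43 on the log2 scale for HNRNPU and 0.92 for HNRNPR, the least abundant gene, at 107 to 207 reads per library.

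The inhibitors were compared at matched dose and time. At 15 min, 0 of the 9 genes were called between GSK591 and MS023 in edgeR or DESeq2, 2 had an unadjusted p under 0.05, and 1.09% of all genes were called. HNRNPR had the widest gap, 16.5 and 24.7 CPM with GSK591 and 14.3 and 16.1 CPM with MS023 (0.45 ± 0.17, 95% interval 0.11 to 0.79, edgeR adjusted p 0.29). At 3 h edgeR called 0 of 9 and 0% of all genes, with 0 of 9 and 1319 of all at an unadjusted p under 0.05, and DESeq2 called 0 of 9. TAF15 was at 175 and 163 CPM with GSK591 and 148 and 147 CPM with MS023, a difference of 0.19 (95% interval -0.04 to 0.42).

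Over the 14 libraries some of the genes moved together, given here as a description of libraries that share depth and scaling. HNRNPA2B1 and HNRNPR had r = 0.92 on log2 CPM, and 0.91 after group means were removed. TAF15 and HNRNPA2B1 had 0.85 and 0.89. HNRNPA1 and G3BP1, called in opposite directions but in different comparisons, had -0.54, and -0.07 after group means were removed. Among 9983 genes that averaged 10 CPM or more, the group means of HNRNPA1 over the 7 groups were most like those of TFPI (r = 0.993), GINS2 (0.992) and GDI2 (0.991), those of G3BP1 most like AC005332.4 (0.99), WEE1 (0.97) and CHPT1 (0.97), and those of TAF15 most like PPDPF (0.997) and SFPQ (0.983).

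Genes related to the 9 were read the same way in 2 lists, 20 other hnRNP genes and 20 other genes of RGG proteins. At 3 h of GSK591, 2 of the other hnRNP genes rose and 1 fell, with a median over the 20 of -0.13, and 4 of the other RGG genes rose and 2 fell, with a median of 0.03. The 9 genes had a median of -0.08 and all genes -0.01. The calls made up 15% of the other hnRNP genes and 30% of the other RGG genes, against 11% of all genes. At 3 h of MS023, 2 and 4 rose, with medians of -0.17 and 0.01, against -0.21 for the 9 and -0.01 for all genes. The calls made up 10% and 20% of these lists, against 7.63% of all genes. With library totals alone, the median of all genes moved by 0.13 at 3 h of GSK591 and by 0.02 at 3 h of MS023, and 5 of the 9 lay above 0 for GSK591.

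The hnRNP genes that rose at 3 h were HNRNPAB and HNRNPLL. HNRNPAB, which encodes a protein bound to nascent transcripts, read 56.0 and 59.2 CPM untreated, 128 CPM in both libraries of GSK591 for 3 h and 142 and 129 CPM with MS023 for 3 h. That was 1.15 ± 0.11 and 1.23 ± 0.11 on the log2 scale (edgeR adjusted p 3.6e-10 and 8.7e-11). HNRNPLL, a splicing regulator known from T cells, read 23.23 and 27.9 CPM untreated and 55.3 to 61.5 CPM in the 4 libraries of 3 h, with 1.19 ± 0.11 and 1.18 ± 0.11. HNRNPA3 fell with GSK591, from 54.4 and 58.7 to 44.5 and 41.4 CPM (-0.40 ± 0.12, edgeR adjusted p 0.023). In the other RGG list HABP4 (1.03 and 0.97), KHDRBS1 (0.77 and 0.66) and FXR2 (0.72 and 0.73) rose at 3 h of both inhibitors, although FXR2 holds 0 RGG triplets by the count above. HABP4, a relative of SERBP1, went from 9.5 and 12.0 CPM to 19.7 to 22.4 CPM, whereas SERBP1 stayed between 25.6 and 32.1 CPM in those libraries. CHTOP (-0.47) fell with GSK591. Exons of CDC14B cover 27.0% of the HABP4 exon length on the opposite strand. At 15 min of GSK591, HNRNPAB (102 and 81.1 CPM) and HNRNPLL (41.8 and 38.7 CPM) already lay above untreated cells. In that comparison 2 of the 20 other hnRNP genes were called, both higher (10%), and 0 of the other RGG genes, against 0.306% of all genes.

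With Dex added to MS023, 6 of the other hnRNP genes rose, with a median of 0.21, and of the other RGG genes 2 rose and 1 fell, with a median of 0.09. The 9 genes had 0.11 and all genes -0.02. The calls made up 30% of the other hnRNP genes and 15% of the other RGG genes, against 8.97% of all genes. HNRNPAB went from 50.9 and 58.2 to 131 and 149 CPM (1.37 ± 0.11), HNRNPLL from 23.25 and 26.9 to 41.0 and 45.3 CPM (0.79 ± 0.12), and KHDRBS1, which encodes the signal-linked RNA-binding protein Sam68, from 12.5 and 14.4 to 24.8 and 23.8 CPM (0.86 ± 0.18). With library totals alone, the median of all genes moved by -0.17 in this comparison and 28.8% of all calls were higher, against 65.8% with TMM. Of the 11 genes of arginine methyltransferases and their cofactors, 10 were tested. PRMT1 was called in 0 comparisons and PRMT5 in 1, lower at 3 h than at 15 min of MS023 (-0.63). In that comparison 1 of the 10 rose and 2 fell (30% called), against 12% of all genes. At 3 h against untreated cells 1 rose with each inhibitor (10%), against 11% of all genes for GSK591 and 7.63% for MS023. Exons of PRMT5-AS1 cover 27.1% of the PRMT5 exon length on the opposite strand.

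**Figure D4:**
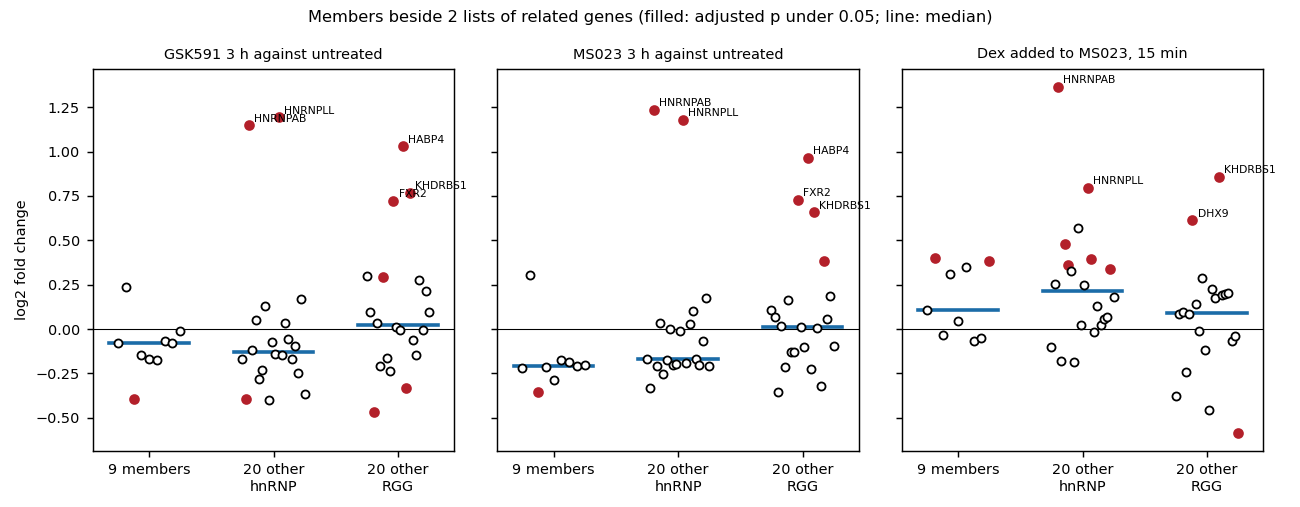
The y axes give log2 fold changes of the 9 genes and of the 2 lists of 20 genes in 3 comparisons; each point is a gene, filled where the edgeR adjusted p is under 0.05, and lines are medians. HNRNPAB (1.15, 1.23 and 1.37) and HNRNPLL lie above all 9 genes in each panel.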

How the data were processed

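Read counts of 58780 genes in 14 libraries were tested as the authors deposited them. Per the submitters' processing notes, Subread with featureCounts 2.0.1, DESeq2 and the hg38 build were used; the aligner's settings, the counting feature and the strand setting are not given in the sources used here. The authors' deposited tables add, per the file headers, log2 fold changes with standard errors, p-values, a test score and a mean signal for each treatment against control; their design is not given in the sources used here. Identifiers matched GENCODE 29, which supplied 22731 symbols the table leaves blank, exon lengths and the mitochondrial genes.

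The members, lists and naming rule were chosen with earlier results of these data known: the 9 genes always, up to 3 called rises and 3 called falls per list and comparison, and the 3 most alike genes. A feature outside it was chosen after its values were seen. One called gene of the related lists is counted but not reported here by name. All libraries entered one fit (edgeR 4.0.16, R 4.3.3; quasi-likelihood, TMM, filterByExpr, 21910 genes, 7 residual degrees of freedom from 2 libraries in each of 7 groups), with 13 contrasts and Benjamini-Hochberg adjustment, called at an adjusted p under 0.05. The test borrows spread across genes, which gave a median of 39.7 total degrees of freedom. Intervals are at 95% and use these total degrees of freedom. Functions were tested on simulated data. Alternatives were DESeq2 1.42.0, other scalings, no count filter, only the groups compared, a replicate block, pseudogenes summed, each library left out and, added after the data were seen, levels per gene span. Without a spike-in in the fit, changes are relative to the bulk of genes.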

Additional observations from a re-analysis of the deposited data

Results flagged for a closer look

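No flag fell on the 9 genes themselves, and 4 fell on genes of the related lists, each because 2 groups differed under the same contrast. The effect of adding Dex on HNRNPAB differed between the inhibitors by -1.25 ± 0.16 (SE) on the log2 scale (edgeR adjusted p 1.5e-05): it read 102 and 81.1 CPM with GSK591 and 107 and 90.9 CPM with GSK591 and Dex, but 50.9 and 58.2 CPM with MS023 and 131 and 149 CPM with MS023 and Dex. At 15 min HNRNPAB was also higher with GSK591 than with MS023, by 0.75 ± 0.11 (edgeR adjusted p 0.00015). HNRNPLL was higher in the same comparison by 0.69 ± 0.12 (edgeR adjusted p 0.00095), at 41.8 and 38.7 CPM with GSK591 and 23.25 and 26.9 CPM with MS023. Neither call at 15 min was kept without the first library of MS023 for 15 min, a fit that leaves that group a single library. The Dex difference for HNRNPAB uses the same MS023 libraries. TOP3B moved in opposite directions from 15 min to 3 h, with effects that differed by 0.68 on the log2 scale: it read 10.8 and 10.7 CPM and then 11.5 and 12.8 CPM with GSK591, and 14.8 and 15.5 CPM and then 12.5 and 8.3 CPM with MS023. This last difference was not tested, and exons of AC245452.1 cover 90.7% of the TOP3B exon length on the opposite strand.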

How the results depend on the processing

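Of 160 recounts of the members called, 127 equalled the main value, 26 were lower and 7 higher, each by 1 or 2 genes, and no called change reversed. For GSK591 at 3 h against 15 min (1 called), DESeq2, median-of-ratios size factors, removal of mitochondrial genes, no count filter, only the groups compared, summed pseudogenes and library totals alone each gave 0. For either inhibitor at 3 h against untreated cells (1 called), summed pseudogenes and library totals alone gave 0. For Dex added to MS023 (2 called), DESeq2 gave 1, library totals 0 and only the groups compared 3 (HNRNPA2B1 added, adjusted p 0.037), and for MS023 with Dex against untreated cells (0 called), only the groups compared gave 1, HNRNPU. Leaving out 1 library gave 0 to 1 in each comparison with a call and in both comparisons of GSK591 with Dex. For MS023 at 3 h against 15 min, library totals kept a count of 1 but called HNRNPA1 (-0.43, adjusted p 0.031) in place of G3BP1 (0.31, 0.18). The cause was not tested.

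The replicate numbers were not shown to pair libraries: over 21 pairs of groups the correlation of deviations ran from -0.14 to 0.26, with 7 over 0.1. With the replicate block, 2 genes were called in place of 1 for GSK591 at 3 h against 15 min (G3BP1 added, adjusted p 0.032), MS023 at 3 h against 15 min (HNRNPA1, 0.048) and MS023 at 3 h against untreated cells (G3BP1, 0.038).

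Counts over all genes moved by more than 1.5 times in 12 of 13 comparisons with DESeq2: for GSK591 at 3 h 1342 were called against 2419, for MS023 at 3 h 952 against 1672, and for Dex added to MS023 1096 against 1966. With library totals alone the share of higher calls went from 65.6% to 90.9% at 3 h of GSK591 and from 63.5% to 35.9% for MS023 at 3 h against 15 min. Depth limits HNRNPR most, at 107 to 207 reads per library.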
